A study of Mus musculus with 7 samples.

Results

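The expression of 9 genes that mark germ cells and the oocytes of early follicles was followed across bulk RNA-seq libraries of whole mouse ovary. The genes, Figla, Nobox, Sohlh1, Lhx8, Ddx4, Dazl, Ybx2, Kit and Uchl1, were chosen by symbol. All 9 were found among the 34866 genes of the deposited table. The 7 libraries came from females aged 8 to 12 weeks and formed 3 groups. Wild type mice on the diet labelled CD were fertile (2 libraries, WT CD), Abcg5/g8 knockout mice on CD were infertile (3 libraries, KO CD), and Abcg5/g8 knockout mice on the diet labelled VOFD were fertile (2 libraries, KO VOFD). Abcg5 and Abcg8 encode the subunits of a sterol exporter of liver and gut. The labels used here state neither the strain, the full names of the diets nor whether each library was a separate animal. The p-values therefore describe the spread among these libraries, which may not be the spread among animals.

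In the mouse ovary each oocyte rests in a primordial follicle, surrounded by flat pregranulosa cells, until it is activated and grows. A small set of transcription factors, restricted largely to oocytes, builds this pool and switches on the genes of the growing oocyte, while RNA-binding proteins store and time the use of maternal transcripts. The receptor KIT on the oocyte receives KIT ligand from granulosa cells and signals through PI3K and AKT during activation. Most of these genes are also read in growing oocytes, and whole-ovary RNA does not separate follicle stages.

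Among the transcription factors, Figla and Sohlh1 encode basic helix-loop-helix proteins, a class that binds E-boxes, and Nobox encodes a homeodomain protein. The promoters of these 3 genes are shown because the bases before each start carried E-boxes and held no exon annotated in GENCODE M21. The sequences are the 250 bases before the RefSeq start on GRCm38.p6, read 5′ to 3′ on the gene's own strand, with every match to CANNTG in capitals.
Figla (chr6:86016941-86017190, plus strand): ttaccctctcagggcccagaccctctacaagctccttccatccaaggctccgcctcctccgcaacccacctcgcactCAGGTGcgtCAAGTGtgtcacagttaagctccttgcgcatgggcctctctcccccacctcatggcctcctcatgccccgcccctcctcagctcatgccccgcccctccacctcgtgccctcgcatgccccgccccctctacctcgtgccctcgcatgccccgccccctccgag
Nobox (chr6:43309555-43309804, minus strand): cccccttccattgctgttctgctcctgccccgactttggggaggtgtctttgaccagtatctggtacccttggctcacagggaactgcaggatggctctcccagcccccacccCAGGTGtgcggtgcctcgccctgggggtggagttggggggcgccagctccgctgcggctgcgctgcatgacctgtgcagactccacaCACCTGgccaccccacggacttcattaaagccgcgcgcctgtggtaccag
Sohlh1 (chr2:25847249-25847498, minus strand): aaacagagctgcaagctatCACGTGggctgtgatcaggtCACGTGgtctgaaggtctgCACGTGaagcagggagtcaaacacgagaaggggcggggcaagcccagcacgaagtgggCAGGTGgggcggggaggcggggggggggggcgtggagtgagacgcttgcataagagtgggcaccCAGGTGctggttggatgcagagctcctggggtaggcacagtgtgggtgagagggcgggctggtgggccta
The Figla and Nobox windows each held 2 E-boxes and the Sohlh1 window held 5, of which 3 were the palindrome CACGTG. Both motifs read the same on either strand, and matches to the palindrome are counted among the E-boxes. Of 32851 RefSeq promoter windows of the same length, 66.2% held at least 1 E-box, 6.02% held this palindrome and 0.0609% held 3 or more copies of it. All 9 genes matched a RefSeq window, and with the first listed start of each, 6 held an E-box and 2, those of Sohlh1 and Ddx4, held the palindrome. The NOBOX element, searched on both strands as TAATTG and by its variants TAATTA and also TAGTTG, matched in 0 of the 9 windows and in 16.1% of all windows. The first listed windows of Kit, Lhx8 and Uchl1 held no E-box. A match is a run of letters in these windows and was not tested as a binding site.

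The values are TPM, each gene's length-scaled share of the transcripts of its library, so levels of different genes can be set side by side. Sequencing depth is unknown, because TPM does not keep it, and no counting interval could be given. Each library had 14267 to 14982 genes at 1 TPM or more. The labelled tissue was checked with 12 genes of growing oocytes, which include Zp3 and Gdf9, and 14 granulosa cell genes, and all of them were at 1 TPM or more in all 7 libraries. Markers of other cells differed between the groups. The 5 genes of luteal cells summed to 176, 69.3 and 125 TPM in KO CD libraries 1, 2 and 3 and to 959 to 1824 TPM in the fertile libraries. Of these 5, 2 were called lower in KO CD against WT CD, Ptgfr (log2 fold change -5.20, limma adjusted p = 0.00108) and Akr1c18 (-5.68, adjusted p = 0.0306), while Prlr overlapped between the groups. The 4 haemoglobin genes summed to 1261 to 3039 TPM in KO CD and to 438 to 832 TPM in the fertile libraries, the 3 adipose genes to 440 to 1131 TPM and to 102 to 369 TPM, and the 3 oviduct genes to 369 TPM in KO CD library 3 and to 4.04 to 46.1 TPM in the other 6. TPM is a share, and the part of these other cells in the levels of the 9 genes was not tested. KO CD library 1 stood apart in the level of its oocyte genes. The geometric mean of the 12 growing oocyte genes was 25.0 TPM in it, against 68.8 and 49.2 TPM in KO CD libraries 2 and 3, 47.3 and 55.0 TPM in WT CD, and 66.1 and 63.5 TPM in KO VOFD. In bulk ovary, fewer oocytes, less RNA per oocyte and a larger share of RNA from other cells cannot be told apart. The main counts below are therefore also given without that library. This choice followed the values and is not independent of the 9 genes. Relative to the median of the 4 fertile libraries, the growing oocyte genes stood at 0.422 there and the 9 genes at a median of 0.411. KO CD library 3 stood apart in other measures, with 11.7% of its TPM on mitochondrial genes against 15.4 to 18.3% in the other 6 libraries, and with the lowest correlation with each of them (r = 0.975 to 0.982 over genes).

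The 9 genes spanned a wide range of levels. Uchl1 was highest in all 7 libraries, with a mean of 124 TPM over the 7, and its range did not overlap that of the next gene. Ybx2 (mean 20.2 TPM), Kit (16.6 TPM) and Nobox (14.9 TPM) followed and traded places between libraries, with Ybx2 above Kit in 4 of 7 libraries and Kit above Nobox in 3 of 7. Nobox lay above Lhx8 (7.54 TPM) in 7 of 7 libraries, and Lhx8 above Dazl (6.49 TPM) in 5 of 7. Figla (2.85 TPM) and Ddx4 (2.82 TPM) were not separable in order, since Figla was higher in 4 of 7. Sohlh1 was lowest in all 7 libraries (0.764 TPM).

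**Figure D1:**
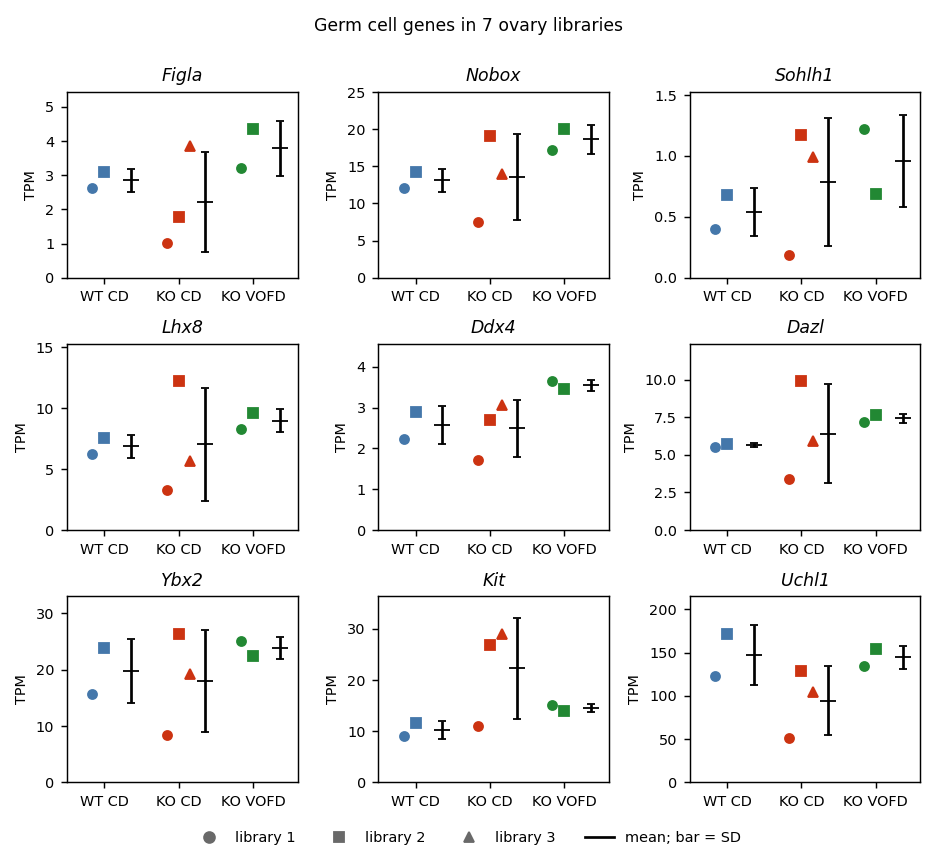
TPM of each of the 9 genes (y axis, linear, from 0) in WT CD, KO CD and KO VOFD ovaries; each point is a library, and the black mark and bar are the group mean and SD (n = 2, 3 and 2). KO CD library 1 (red circle) is the lowest of the 7 for every gene except Kit, and Kit is highest in KO CD libraries 2 and 3.

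None of the 9 genes passed the test in any of the 4 comparisons with all 7 libraries. The test was limma on log2(TPM + 1), with Benjamini and Hochberg (BH) adjustment over the 15487 genes that reached 1 TPM in at least 2 libraries and a threshold of 0.05. All 9 genes passed that filter, Sohlh1 only through KO CD library 2 and KO VOFD library 1. For KO CD against WT CD 0.11% of all genes tested were called, for KO VOFD against KO CD 0.0452%, for KO VOFD against WT CD 0.0129%, and for KO CD against the 4 fertile libraries pooled 0.245%. At an unadjusted p under 0.05, 1 of 9 genes (Kit, higher) passed for KO CD against WT CD, where 10.3% of all genes did and 7.86% in the higher direction. For KO CD against the fertile libraries 1 of 9 (Uchl1, lower) did, where 15.4% of all genes did and 3.7% in the lower direction. For KO VOFD against KO CD and against WT CD 0 of 9 did, where 7.94% and 1.99% of all genes did. These comparisons share groups, and their values are not independent of each other.

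**Figure D2:**
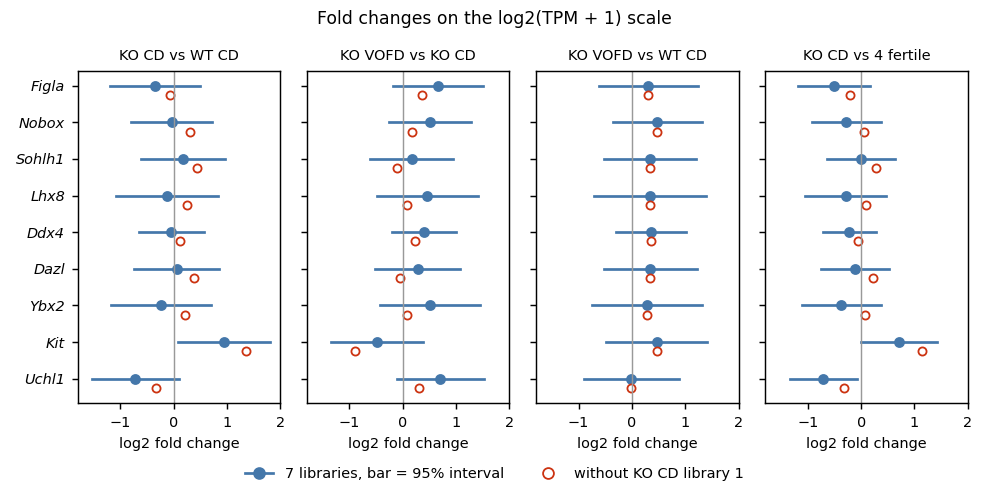
Log2 fold changes on the log2(TPM + 1) scale (x axis) of the 9 genes in 4 comparisons; filled points and bars are the estimate and its 95% interval from all 7 libraries, and open points are the estimates without KO CD library 1. With all 7 libraries, 2 intervals lie clear of 0, that of Kit for KO CD against WT CD and that of Uchl1 for KO CD against the fertile libraries.

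Of the transcription factors, Figla is needed in mice to form primordial follicles and to express the zona pellucida genes. Figla (ENSMUSG00000030001.4, GRCm38 chromosome 6, 86016171 to 86020996, plus strand) was at 2.62 and 3.09 TPM in WT CD, at 1.02, 1.79 and 3.86 TPM in KO CD libraries 1, 2 and 3, and at 3.22 and 4.36 TPM in KO VOFD. KO CD libraries 1 and 2 were the lowest of the 7, while KO CD library 3 was the second highest, so the groups overlapped. The log2 fold change of Figla for KO CD against the fertile libraries was -0.50 (SE 0.30, limma adjusted p = 0.425). Its RefSeq start lies downstream of the GENCODE M21 gene start, so the window shown above falls in an intron of the longer transcript.

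Nobox is needed in mice for the step from primordial to growing follicles. Nobox (ENSMUSG00000029736.15, chromosome 6, 43303674 to 43309554, minus strand) was at 12.0 and 14.2 TPM in WT CD, at 7.56, 19.1 and 13.9 TPM in KO CD and at 17.2 and 20.0 TPM in KO VOFD. The 3 KO CD libraries spread around the WT CD values, and both KO VOFD libraries lay above WT CD. The difference between KO VOFD and WT CD was a log2 fold change of 0.48 (SE 0.37, limma adjusted p = 1), with a 95% interval from -0.36 to 1.31.

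Lhx8, a LIM homeobox gene of early oocytes (ENSMUSG00000096225.7, chromosome 3, 154306294 to 154330659, minus strand), was at 6.21 and 7.54 TPM in WT CD, at 3.26, 12.2 and 5.67 TPM in KO CD and at 8.29 and 9.62 TPM in KO VOFD. KO CD held both the lowest and the highest Lhx8 level of the series. Its group means were 6.87 ± 0.937 TPM (SD, n = 2) in WT CD, 7.04 ± 4.63 TPM (n = 3) in KO CD and 8.96 ± 0.938 TPM (n = 2) in KO VOFD. Sohlh1, which in mice acts upstream of Lhx8 in the oocytes of primordial follicles (ENSMUSG00000059625.6, chromosome 2, 25842995 to 25847248, minus strand), was at 0.400 and 0.680 TPM in WT CD, at 0.188, 1.17 and 0.994 TPM in KO CD and at 1.22 and 0.690 TPM in KO VOFD. At these levels the added 1 TPM of the log2 scale compresses differences, and its 95% interval for KO CD against WT CD ran from -0.61 to 0.96 around a log2 fold change of 0.17 (limma adjusted p = 0.835).

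Of the genes for RNA-binding proteins, Ddx4 varied least within KO CD and Dazl and Ybx2 more widely, with the highest KO CD library at 1.78, 2.89 and 3.13 times the lowest. Ddx4 encodes the mouse homologue of the germ plasm helicase Vasa (ENSMUSG00000021758.14, chromosome 13, 112598333 to 112652475, minus strand). It was at 2.24 and 2.90 TPM in WT CD, at 1.72, 2.70 and 3.07 TPM in KO CD and at 3.65 and 3.45 TPM in KO VOFD. Both KO VOFD libraries were above all 5 other libraries, and the log2 fold change of Ddx4 for KO VOFD against KO CD was 0.40 (SE 0.26, limma adjusted p = 0.709).

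Dazl binds transcripts and promotes their translation in oocytes. Dazl (ENSMUSG00000010592.8, chromosome 17, 50279395 to 50293636, minus strand) was at 5.55 and 5.75 TPM in WT CD, at 3.42, 9.89 and 5.93 TPM in KO CD and at 7.21 and 7.66 TPM in KO VOFD. The WT CD and KO VOFD libraries lay close together within each group (5.65 ± 0.141 and 7.43 ± 0.312 TPM, SD, n = 2 each), while KO CD ranged from the lowest to the highest value. Ybx2 encodes MSY2, an abundant oocyte protein that coats stored maternal transcripts (ENSMUSG00000018554.13, chromosome 11, 69935796 to 69941605, plus strand). It was at 15.8 and 23.8 TPM in WT CD, at 8.43, 26.4 and 19.2 TPM in KO CD and at 25.2 and 22.4 TPM in KO VOFD, with all 3 groups overlapping.

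Uchl1 encodes a deubiquitinating enzyme that is abundant in oocytes and in neurons (ENSMUSG00000029223.12, chromosome 5, 66676091 to 66687234, plus strand). It was at 123 and 172 TPM in WT CD, at 50.8, 128 and 104 TPM in KO CD and at 135 and 154 TPM in KO VOFD. KO CD libraries 1 and 3 were below all 4 fertile libraries, and KO CD library 2 lay between the WT CD libraries. The log2 fold change of Uchl1 for KO CD against the fertile libraries was -0.71 (SE 0.28, unadjusted p = 0.0306, limma adjusted p = 0.283), and without KO CD library 1 it was -0.32 (adjusted p = 0.251). Over 13 alternatives this value ran from -0.98 to -0.32 with adjusted p between 0.174 and 0.463. Of 8 neuron markers, 4 passed the filter, and the summed level of the 8 was 20.0 to 25.6 TPM in KO CD and 26.7 to 31.3 TPM in the fertile libraries, mostly from Tubb3 (10.7 to 14.3 TPM in KO CD, 17.1 to 23.8 TPM in the fertile libraries). Stmn2 went the other way, at 0.986 to 2.07 TPM in KO CD and 0.572 to 0.853 TPM in the fertile libraries. Nefl was listed at 0 in 6 of the 7 libraries, and Snap25 and Dbh were under 1 TPM in all. The part of neurons in the Uchl1 level was not tested. The antisense gene Uchl1os overlaps 408 bases of Uchl1 on the other strand. The use of strand in counting is not given in the sources used here, so reads of the overlap cannot be assigned.

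Kit departed from the other 8 genes. It encodes the receptor tyrosine kinase of oocytes, which theca and interstitial cells and mast cells also carry (ENSMUSG00000005672.12, chromosome 5, 75574916 to 75656722, plus strand). Kit was at 9.06 and 11.6 TPM in WT CD, at 11.0, 26.8 and 29.1 TPM in KO CD and at 15.0 and 13.9 TPM in KO VOFD. KO CD libraries 2 and 3 were above all other libraries, and KO CD library 1 lay between the WT CD libraries. With all libraries, the log2 fold change of Kit for KO CD against WT CD was 0.94 (SE 0.38, unadjusted p = 0.0357, limma adjusted p = 0.467), and it did not pass the test.

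Without KO CD library 1 Kit was called higher. Its log2 fold change was then 1.36 (SE 0.20, limma adjusted p = 0.0292) against WT CD and 1.13 (SE 0.21, adjusted p = 0.0240) against the fertile libraries. Without KO CD library 2 or 3 instead, its value against WT CD was 0.76 (adjusted p = 0.473) or 0.70 (adjusted p = 0.650). In the fits without KO CD library 1, 1.14% and 4.34% of 15328 genes were called, 0.685% and 3.09% in the higher direction, and 1 of the 9 genes was. Over all 14 alternatives the fold change of Kit against WT CD was positive, from 0.70 to 1.36, with adjusted p from 0.0292 to 0.999, and it passed in 1. Between KO VOFD and KO CD its log2 fold change was -0.48 (SE 0.38, adjusted p = 0.741), and -0.90 (SE 0.20, adjusted p = 0.104) without KO CD library 1.

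Relative to the other 8 genes of the same library, Kit stood higher in all 3 KO CD libraries than in the fertile ones. The ratio of Kit to the geometric mean of the other 8 was 1.49 and 1.46 in WT CD, 1.64 and 1.51 in KO VOFD, and 3.40, 2.97 and 3.83 in KO CD libraries 1, 2 and 3. The ratio of Kit to the geometric mean of the 12 growing oocyte genes was 0.191 and 0.210 in WT CD, 0.228 and 0.219 in KO VOFD, and 0.440, 0.390 and 0.592 in KO CD. The KO CD libraries did not overlap the fertile ones in either ratio of Kit. Both ratios were formed after the values were seen and are given without a test or the share of all genes. Dazl also cleared the fertile libraries in its ratio to the growing oocyte genes, by a narrow margin. That ratio was 0.1207 to 0.1438 in KO CD, 0.1045 to 0.1173 in WT CD and 0.1091 to 0.1206 in KO VOFD. In KO CD library 1 Kit stood at 0.863 of the median of the 4 fertile libraries and the growing oocyte genes at 0.422. The high ratios of that library thus came from low denominators and not from a high Kit level. The KIT ligand gene Kitl, expressed by granulosa cells, was at 27.0 and 34.3 TPM in WT CD, at 57.1, 54.1 and 79.4 TPM in KO CD and at 37.1 and 44.3 TPM in KO VOFD. All 3 KO CD libraries were above the 4 fertile ones for Kitl, where 11.2% of all genes were. The log2 fold change of Kitl was 1.01 (SE 0.22, unadjusted p = 0.00148, limma adjusted p = 0.214) against WT CD, and 1.08 (adjusted p = 0.0774) without KO CD library 1.

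**Figure D3:**
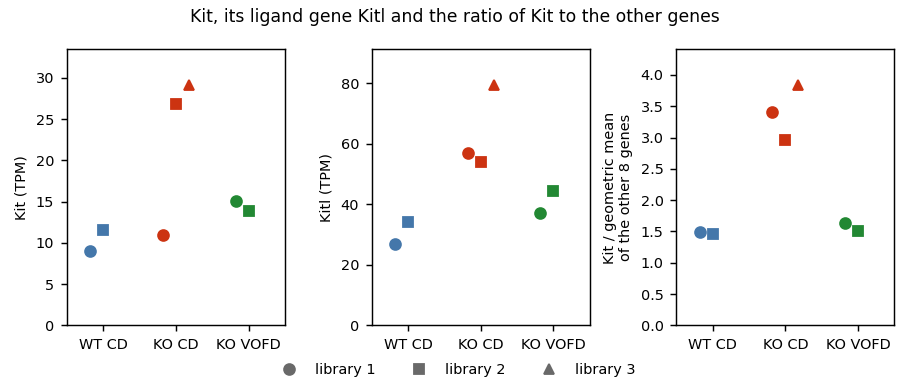
Kit (TPM), its ligand gene Kitl (TPM) and the ratio of Kit to the geometric mean of the other 8 genes (y axes, linear, from 0) in WT CD, KO CD and KO VOFD; each point is a library. The ratio is 2.97 to 3.83 in KO CD and 1.46 to 1.64 in the 4 fertile libraries, while the Kit level of KO CD library 1 lies among the fertile ones.

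Markers of mast and theca cells, which can express Kit, and of granulosa cells, which express its ligand, also differed between these libraries. The summed level of 8 mast cell markers was 50.2, 64.3 and 52.4 TPM in KO CD libraries 1, 2 and 3 and 22.3 to 30.4 TPM in the fertile libraries, with 6 of 8 markers tested and 0 called. In KO CD library 3 most of this sum was Hdc, at 36.4 TPM, and the other 7 markers summed to 16.0 TPM there, within the 11.6 to 19.6 TPM of the fertile libraries, against 32.9 and 54.5 TPM in KO CD libraries 1 and 2. Cpa3, a mast cell protease gene, was at 6.37, 11.4 and 3.76 TPM in KO CD and at 1.65 to 3.43 TPM in the fertile libraries, so that KO CD library 3, with the highest Kit level, was close to the fertile range. Tpsab1 and Ms4a2 were under 1 TPM in all 7 libraries. The 10 theca and interstitial markers summed to 8667, 5006 and 4901 TPM in KO CD libraries 1, 2 and 3 and to 6375 to 8202 TPM in the fertile libraries, and Cyp17a1 was at 3.53 TPM in KO CD library 1 against 81.9 to 186 TPM in the other 6. The 14 granulosa genes summed to 1637, 5286 and 5986 TPM in KO CD and to 2025 to 2937 TPM in the fertile libraries, high in the same KO CD libraries as Kit. Kitl is one of these 14. Without KO CD library 1, where Kit was called, 3 of the 14 were called higher against WT CD and 7 against the fertile libraries. Of all genes, 0.685% and 3.09% were called higher in these fits, and 13 of the 14 had positive fold changes in each. Of the 10 theca and interstitial genes, 2 and 3 were called lower, where 69 and 192 of all 15328 genes were. These were Lhcgr, also a luteal gene, and Star against WT CD, with Cyp11a1 in addition against the fertile libraries. In each of these fits 4 of the 10 had positive fold changes. Against WT CD, Cyp17a1 was not called (log2 fold change -0.44, limma adjusted p = 0.383), and Insl3 was higher without being called (1.14, adjusted p = 0.052). The part of mast and theca cells in the Kit level was not tested, nor was a link between the granulosa genes and Kit.

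Across the whole set, KO CD library 1 was low, while KO CD library 3 lay within the range of the fertile libraries in its median. Relative to the median of the 4 fertile libraries, the 9 genes of KO CD library 1 lay between 0.274 and 0.863 with a median of 0.411, and 8 of 9 were below every fertile library, Kit being the exception, where 22.1% of all genes tested were. In KO CD library 2 the median ratio was 1.22, with 4 of 9 genes above every fertile library, where 34.8% of all genes were, and 1 of 9, Figla, below, where 19% were. In KO CD library 3 it was 0.915, with 1 of 9 genes, Kit, above every fertile library, where 57.8% of all genes were, and 2 of 9, Lhx8 and Uchl1, below, where 15.5% were. The fertile libraries had medians of 0.766 and 0.952 in WT CD and 1.10 and 1.09 in KO VOFD, and all 9 genes of WT CD library 1 were below the fertile median. The growing oocyte genes followed the same course, with ratios of 0.422, 1.16 and 0.830 in KO CD libraries 1, 2 and 3.

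**Figure D4:**
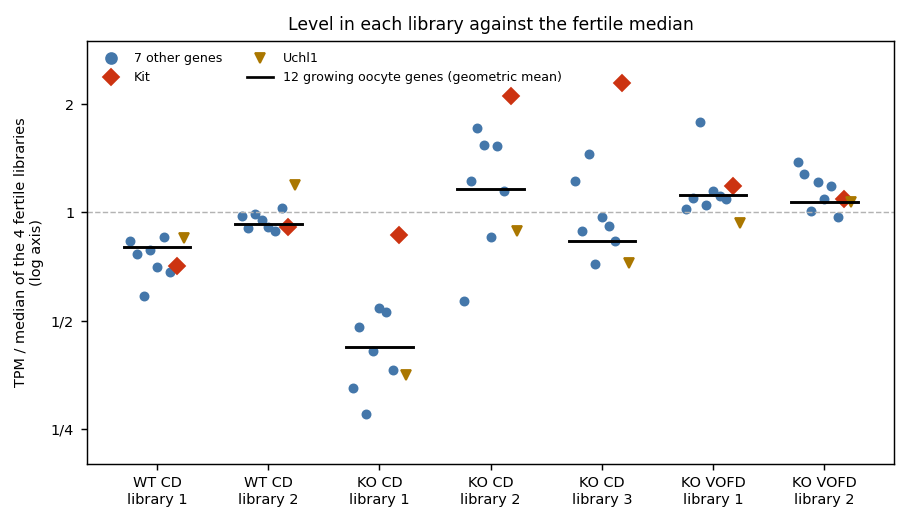
Level of each of the 9 genes in each library as a ratio to the median of the 4 fertile libraries (y axis, log2 spaced); circles are 7 genes, diamonds Kit and triangles Uchl1, and black bars are the geometric mean of 12 growing oocyte genes. In KO CD library 1 the median gene stands at 0.411 and the growing oocyte genes at 0.422, while Kit stands at 0.863.

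The median log2 fold change of the 9 genes for KO CD against WT CD was -0.04, beside 0.19 for all genes tested, with 3 genes positive, where 72.3% of all genes were, and 6 negative. Without KO CD library 1 it was 0.26, beside 0.24 for all genes, with 7 positive and 2 negative. Leaving out WT CD library 2 instead, which rests WT CD on 1 library, gave 0.07 beside 0.30 for all genes, with 6 positive and 3 negative. The direction of the set thus turned on single libraries. The 12 growing oocyte genes also turned without KO CD library 1. They had 0 of 12 positive and a median of -0.19 with all libraries, and 12 of 12 positive and a median of 0.25 without that library. Between KO CD and WT CD 0 of 9 genes had groups that did not overlap in the higher direction, where 20.6% of all genes did, and 0 of 9 in the lower direction, where 5.95% did. Against the 4 fertile libraries 2 of 9 fold changes were positive, where 69.2% of all genes were, and 0 of 9 genes were clear of all fertile libraries in the higher or the lower direction, where 11.2% and 3.76% of all genes were. That comparison had, without KO CD library 1, 6 of 9 positive and a median of 0.065, against -0.28 with it.

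In KO VOFD most of the 9 genes stood slightly above both other groups without passing the test. Against KO CD 8 of 9 fold changes were positive, where 36.7% of all genes were, with a median of 0.46 beside -0.10 for all genes. Without KO CD library 1 the median was 0.08, with 6 of 9 positive. In 2 of 9 genes, Ddx4 and Uchl1, every KO VOFD library was above every KO CD library, where 8.68% of all genes were. Against WT CD 8 of 9 fold changes were positive, where 65.3% of all genes were, and the median was 0.34 beside 0.08 for all genes. In 7 of 9 genes, Ybx2 and Uchl1 being the others, both KO VOFD libraries were above both WT CD libraries, where 24.6% of all genes were. This direction was not particular to the 9 genes. The 12 growing oocyte genes had 12 of 12 positive against KO CD (median 0.57) and against WT CD (median 0.32). Of 21 other germ cell and early oocyte genes tested, 17 and 20 were positive, and of 10 meiotic chromosome genes 1 and 7. The 9 genes are largely read in the same cells and are not independent of each other.

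The ratio to the growing oocyte genes separated the members. For Nobox it was 0.254 to 0.258 in WT CD, 0.278 to 0.302 in KO CD and 0.260 to 0.316 in KO VOFD, so that Nobox followed the growing oocyte genes in KO CD library 1 as well. For Ybx2 it was 0.333 to 0.432, 0.337 to 0.390 and 0.353 to 0.381 in the same groups, with full overlap. Figla had the largest SD of the log2 ratio within KO CD among the 9 genes (0.80, n = 3), with ratios from 0.0260 to 0.0785, against 0.0552 to 0.0561 in WT CD. For Uchl1 the ratio was 2.59 to 3.12 in WT CD, 1.87 to 2.12 in KO CD and 2.04 to 2.43 in KO VOFD, with KO CD below WT CD and overlapping KO VOFD. These ratios are descriptions without a test.

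No other germ cell gene of the lists passed the test with all 7 libraries. Of 24 further germ cell and early oocyte genes, 23 were in the table, 21 were tested and 0 were called in any of the 4 comparisons, with a median log2 fold change of -0.05 for KO CD against WT CD (9 positive, 12 negative) and 0.37 for KO VOFD against KO CD. These medians, without KO CD library 1, were 0.18 (17 positive, 4 negative) and 0.15. Tex14, a gene of intercellular bridges between germ cells, was at 43.2 and 27.1 TPM in WT CD, at 8.08, 23.0 and 19.5 TPM in KO CD and at 55.2 and 50.6 TPM in KO VOFD. All 3 KO CD libraries were below the 4 fertile ones for Tex14, where 3.76% of all genes were. Its log2 fold change was 1.71 (SE 0.40, unadjusted p = 0.00234, limma adjusted p = 0.321) for KO VOFD against KO CD. Of 19 meiotic chromosome genes 10 were tested and 0 called, and Stra8, which starts meiosis in the fetal ovary, was listed at 0 in all 7 libraries.

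Rec8 and Sycp3 of that list differed in opposite directions. Rec8, a meiotic cohesin gene, was at 7.64 and 6.16 TPM in WT CD, at 4.45, 2.13 and 4.19 TPM in KO CD and at 5.83 and 6.90 TPM in KO VOFD (log2 fold change -0.77, SE 0.23, limma adjusted p = 0.203 for KO CD against the fertile libraries). Sycp3, a synaptonemal complex gene, was at 1.17 and 1.20 TPM in WT CD, at 3.49, 3.78 and 2.61 TPM in KO CD and at 1.90 and 2.46 TPM in KO VOFD (log2 fold change 0.70, SE 0.23, adjusted p = 0.243 for the same comparison). For both genes the KO CD libraries did not overlap the 4 fertile ones, where 3.76% of all genes lay lower and 11.2% higher. Neither gene passed the test. They are named because they ranked 1 and 2 by p among the 10 tested for KO CD against WT CD.

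The KIT ligand and PI3K list had 23 of 23 genes tested and 0 called in the 4 comparisons with all libraries, with a median log2 fold change of 0.26 for KO CD against WT CD beside 0.19 for all genes. Pik3r1, which encodes the regulatory subunit of PI3K, was at 81.8 and 81.2 TPM in WT CD, at 68.3, 41.3 and 48.8 TPM in KO CD and at 89.8 and 74.5 TPM in KO VOFD (log2 fold change -0.65, SE 0.17, limma adjusted p = 0.172 for KO CD against the fertile libraries). Akt2 was at 59.6 and 64.7 TPM in WT CD, at 92.4, 73.2 and 92.3 TPM in KO CD and at 63.9 and 68.3 TPM in KO VOFD (0.41, SE 0.13, adjusted p = 0.217). In both genes KO CD lay to one side of all 4 fertile libraries, where 3.76% of all genes lay lower and 11.2% higher. Kitl and Tsc1 of the list also lay higher, with Tsc1 at 9.09, 10.5 and 12.2 TPM in KO CD and 5.64 to 8.95 TPM in the fertile libraries. No other gene of the 23 lay clear of the fertile libraries in either direction, so the list was close to the shares of all genes. Without KO CD library 1 Pik3r1 was called lower against the fertile libraries (log2 fold change -0.85, SE 0.14, limma adjusted p = 0.0156). It was 1 of the 23 genes, in a fit that called 192 of all 15328 genes lower. The list of 12 genes named in the mouse literature as targets of FIGLA or NOBOX had a median of -0.16 for KO CD against WT CD, with 1 of 12 positive and 0 called. It shares 8 genes with the growing oocyte list and turned likewise without KO CD library 1, with 12 of 12 positive and a median of 0.25.

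Correlations among the 9 genes rested largely on KO CD library 1. Pearson's r of log2(TPM + 1) over 7 libraries was 0.44 to 0.97 with a median of 0.81 for the 28 pairs without Kit, and 0.08 to 0.74 with a median of 0.42 for the 8 pairs with Kit. The 28 pairs, without KO CD library 1, ran from -0.43 to 0.93 with a median of 0.45, and the 8 pairs with Kit from -0.55 to 0.77 with a median of 0.30. The named genes most like Nobox over the 7 libraries, out of 13382, were Kbtbd8 (r = 0.99), Zfp473 (0.99) and Tmem92 (0.99). Those most like Ybx2 were Ube2k (0.99), the oocyte genes Nlrp5 (0.99) and Gja4 (0.99), and those most like Dazl were Nlrp4f (1.00), Vil1 (1.00) and Cpsf4l (0.99). Lhx8 was most like Hddc3 (1.00), Olfr624 (1.00) and Rspo2 (0.99). Kit was most like Rad50 (1.00), Rapgef4 (0.99) and Smc2 (0.99). Rapgef4 was at 7.87 and 11.9 TPM in WT CD, at 13.1, 54.2 and 61.6 TPM in KO CD and at 17.3 and 17.6 TPM in KO VOFD. The first match was Tax1bp1 for Figla (0.99), Adamts17 for Sohlh1 (0.98), Nectin3 for Ddx4 (0.98) and Xrcc5 for Uchl1 (0.99). All these likeness values include KO CD library 1 and were not computed without it. With 7 libraries and 13382 genes, correlations of this size are a description of these libraries.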

How the data were processed

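RNA was extracted from ovaries, each homogenised by itself per the labels' protocols, and 7 libraries were sequenced. The authors deposited TPM values in a single table whose columns each sum to 1000000. Reads were placed on GRCm38, as the submitters' processing notes name it. How they were aligned and counted, including strand, is not given in the sources used here. Columns were assigned to groups by the labels' sample numbers and titles. IDs were matched to symbols without their version (34582 of 34866), and gene coordinates were taken from GENCODE M21. TPM keeps no depth, so precision rests on the spread between libraries.

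Values were transformed as log2(TPM + 1), which understates changes of low genes. Genes at 1 TPM or more in at least 2 libraries entered a limma model (version 3.58.1, R 4.3.3) with an intensity trend, 2-sided tests and BH adjustment over 15487 genes. All 7 libraries entered 1 fit with 3 group means; KO CD against the fertile libraries pooled WT CD and KO VOFD. The models were tested on simulated data.

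All 9 members are named. From each gene list, up to 4 genes, those of lowest p in a comparison, may be named, and markers of other cells that express a member; the likeness rule took the 3 named protein-coding genes with the highest r, with a mean of at least 1 TPM. The members and lists were chosen with earlier results of these data known.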

Additional observations from a re-analysis of the deposited data

How the results depend on the processing

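With the pseudocount at 0.1, no filter, median-of-ratios scaling, quantile normalisation, no intensity trend, only the groups compared (not run for the pooled comparison) or the replicate number as a block, 0 of the 9 genes passed in any comparison. Leaving out 1 library gave 0 to 1 genes for KO CD against WT CD and for KO CD against the fertile libraries (Kit, without KO CD library 1), and 0 for both KO VOFD comparisons. The median fold change of the 9 genes over the fits without 1 library ran from -0.31 to 0.26 for KO CD against WT CD, from 0.08 to 0.70 for KO VOFD against KO CD, from 0.22 to 0.47 for KO VOFD against WT CD and from -0.50 to 0.07 for KO CD against the fertile libraries. Leaving out a WT CD or a KO VOFD library rests that group on 1 library, which is then assumed to vary like the others.

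The genes whose signs turned were not called. For KO CD against WT CD, Dazl was 0.06 and turned to -0.13 under both scalings (median-of-ratios, quantile). Median-of-ratios scaling moved the median of all genes for KO CD against WT CD from 0.19 to 0 and that of the 9 genes from -0.04 to -0.24. For KO CD against the fertile libraries, Sohlh1 was 0.0023 and turned to -0.12 with the pseudocount, -0.069 and -0.059 with these scalings and -0.10 with the replicate block. Over fits without 1 library, the ranges of genes that changed sign were as follows. In KO CD against WT CD, Nobox ran from -0.32 to 0.30, Lhx8 from -0.56 to 0.26, Ddx4 from -0.18 to 0.13, Dazl from -0.26 to 0.39 and Ybx2 from -0.56 to 0.21. In KO VOFD against KO CD, Sohlh1 ran from -0.10 to 0.36 and Dazl from -0.044 to 0.61. In KO VOFD against WT CD, Ybx2 ran from -0.00084 to 0.56 and Uchl1 from -0.25 to 0.23. In KO CD against the fertile libraries, Nobox ran from -0.55 to 0.063, Sohlh1 from -0.10 to 0.27, Lhx8 from -0.73 to 0.088, Dazl from -0.44 to 0.21 and Ybx2 from -0.70 to 0.065.

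The count of all genes called for KO CD against WT CD was 17, and 3 without the filter and 27 with the replicate block. For KO VOFD against KO CD it was 7, and 4 with the pseudocount or only the groups compared. For KO VOFD against WT CD it was 2, and 7 with the pseudocount, 5 without the filter or the trend, 29 with only the groups compared, 12 with the replicate block and 11 with the numbers of KO VOFD crossed, a pairing chosen after seeing the data. For KO CD against the fertile libraries it was 38, and 4 without the filter, 64 and 59 with the scalings and 15 with the block. Leaving out 1 library gave 4 to 174, 3 to 104, 2 to 14 and 15 to 665 in the same order, the highest without KO CD library 1 in all but the third, where it was without KO CD library 3. Same-numbered libraries had deviations from their group means that correlated between -0.19 and 0.05. In a group of 2 libraries these deviations mirror each other, so numbers 1 and 2 gave the same -0.19 for WT CD and KO VOFD. These values cannot show whether the numbers pair the libraries.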
